A study of Homo sapiens with 12 samples.

Results

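The immediate early genes of the AP-1 group are 10 genes chosen by name: FOS, FOSB, FOSL2, JUN, JUNB, EGR1, IER2, IER3, DUSP1 and DUSP6. They are 10 of the 57865 genes of the table, each obtained by adding up the rows of its transcripts under the GENCODE release 29 annotation, and all 10 were among the 15424 genes with enough counts to be tested. They were followed in total RNA of 4 acute myeloid leukaemia cell lines, MOLM-14, MV4-11, OCI-AML3 and KG-1a. Each line was given darglitazone at 10 µM, pioglitazone at 10 µM or the solvent DMSO for 12 h, with 1 library for each line and treatment. Both drugs are thiazolidinediones, which activate the nuclear receptor PPARγ and were developed as insulin sensitisers. The cell line is therefore the replicate (n = 4 for each treatment), no culture of a line was repeated, and both drugs are set against the same 4 DMSO libraries. Each line is the descendant of the cells of 1 patient: MOLM-14 and MV4-11 carry a KMT2A rearrangement and an internal tandem duplication of FLT3, OCI-AML3 carries mutant NPM1, and KG-1a is an undifferentiated line that keeps CD34 on its surface.

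Immediate early genes are switched on within minutes of a growth factor, cytokine or stress signal by transcription factors that are already in the cell, with no need for new protein. MAP kinases pass the signal to serum response factor and its partners at CArG boxes and to CREB and ATF proteins at cyclic AMP response elements. The products include the subunits of AP-1, in which a FOS protein pairs with a JUN protein, the zinc finger factor EGR1, and phosphatases such as DUSP1 and DUSP6 that switch the kinases off again. Their RNAs are short-lived. In myeloid cells the same genes take part in monocytic differentiation.

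The libraries held 1.1 to 64.23 M estimated counts, a 58.6-fold range. The OCI-AML3 pioglitazone library was the shallowest, and a floor of 3 counts stands there at 2.63 CPM (counts per 1 M of the TMM-scaled total of the tested genes). An entry derived from ribosomal RNA, FP671120.3, held 23.5% of all counts with pioglitazone in KG-1a and 6.18% with pioglitazone in OCI-AML3. From genes specific to 1 line, MV4-11 reads were estimated to make up 3.95% of the KG-1a darglitazone library, KG-1a reads 2.07% of the OCI-AML3 pioglitazone library and MOLM-14 reads 2.19% of the MV4-11 DMSO library. All 7 myeloid leukaemia markers had counts, and 3 of 4 erythroid markers and 1 of 5 lymphoid markers were at 0 in every library. Summed lymphoid markers ran over the lines from 0 to 36.6 CPM with darglitazone, 0.514 to 34 CPM with pioglitazone and 0.508 to 47.1 CPM with DMSO. CD3D, CD3E and CD79A were highest in KG-1a (13.7, 14.6 and 18.1 CPM with DMSO). Summed stromal and epithelial markers ran from 1.38 to 51.5, 0 to 53.3 and 0.867 to 57.3 CPM in the same order of treatments. Of these, KRT18 had 48 CPM in MOLM-14 with DMSO. In bulk RNA a lower level can come from fewer cells that express a gene or from less RNA in each cell, and these cannot be told apart.

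The promoters of 4 members that hold the kinds of element marked below run as follows, from 250 bases before to 50 bases after the annotated start (RefSeq, GRCh38.p14, 5′ to 3′ on the strand of the gene). Capitals mark CArG boxes, TGACG on either strand (the core of a cyclic AMP response element, included where it lies within TGACGTCA), and TGACATCA, a site of the AP-1 and ATF kind.
EGR1 chr5:138465229-138465528, plus strand: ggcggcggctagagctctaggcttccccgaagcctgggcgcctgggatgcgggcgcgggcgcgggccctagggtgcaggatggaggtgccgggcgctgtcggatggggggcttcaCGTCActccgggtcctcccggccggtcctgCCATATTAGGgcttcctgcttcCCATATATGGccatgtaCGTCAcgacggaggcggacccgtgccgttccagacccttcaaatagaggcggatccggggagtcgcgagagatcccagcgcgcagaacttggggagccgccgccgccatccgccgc
FOS chr14:75278578-75278877, plus strand: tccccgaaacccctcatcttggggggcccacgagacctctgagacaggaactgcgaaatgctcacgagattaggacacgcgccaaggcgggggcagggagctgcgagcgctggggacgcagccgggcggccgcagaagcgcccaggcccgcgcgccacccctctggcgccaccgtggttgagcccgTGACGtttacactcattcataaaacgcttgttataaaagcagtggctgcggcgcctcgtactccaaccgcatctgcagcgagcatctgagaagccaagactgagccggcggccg
JUN chr1:58783998-58784297, minus strand: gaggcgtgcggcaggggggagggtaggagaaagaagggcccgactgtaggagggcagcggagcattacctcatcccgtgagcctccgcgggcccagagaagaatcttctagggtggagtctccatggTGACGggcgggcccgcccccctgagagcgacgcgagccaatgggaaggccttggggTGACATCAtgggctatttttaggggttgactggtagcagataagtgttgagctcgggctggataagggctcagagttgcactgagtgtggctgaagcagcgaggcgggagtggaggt
DUSP1 chr5:172771146-172771445, minus strand: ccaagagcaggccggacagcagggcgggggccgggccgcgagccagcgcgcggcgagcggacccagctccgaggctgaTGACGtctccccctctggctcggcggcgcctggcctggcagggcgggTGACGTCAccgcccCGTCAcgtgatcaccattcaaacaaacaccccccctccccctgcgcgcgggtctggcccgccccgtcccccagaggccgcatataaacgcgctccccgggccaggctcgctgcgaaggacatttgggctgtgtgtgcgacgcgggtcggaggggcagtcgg

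Within the window of 250 bases before to 50 bases after the start, EGR1 alone of the 9 members with a promoter entry held CArG boxes. They lay at -105 to -96 and at -83 to -74 from the start, and 1.29% of 27305 promoters of the same length held one. Sites further from the start were not searched, so a member without a match here can still have such a site there. TGACG on either strand was found in 8 of the 9 members with a promoter entry, DUSP6 being the exception, against 25.0% of all promoters. The full palindrome TGACGTCA was found in DUSP1 alone of the 9 (1.98% of all promoters), at -125 to -118. TGACATCA was found in JUN alone (2.71% of all promoters), at -67 to -60. TGANTCA, a loose pattern that takes in the classical AP-1 site, was found in FOSL2 alone (7.76% of all promoters), where it read TGACTCA. GCGNGGGCG, a loose pattern for EGR1 sites in which N is any base, was found in the EGR1 promoter alone (9.28% of all promoters). The match there read GCGCGGGCG, at -198 to -190. Both strands were searched, and TGACGTCA and TGACG overlap. A match describes these letters in this window and does not show that a factor binds there. IER3 has no entry in the promoter table.

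The first question is whether either drug changed the group on average over the 4 lines. No member passed the test with darglitazone or with pioglitazone, and none had an unadjusted p under 0.05. Over all 15424 genes, edgeR's quasi-likelihood F test with Benjamini-Hochberg adjustment called 0 genes (0%) with darglitazone against DMSO and 0 genes (0%) with pioglitazone against DMSO, while 525 (3.4%) and 919 (5.96%) had an unadjusted p under 0.05. Fitted log2 fold changes were above 0 for 8 of 10 members with each drug. Their median was 0.37 with darglitazone and 0.30 with pioglitazone, beside 0.01 and -0.02 over all genes. The 2 comparisons share their DMSO libraries, so that the same count in both is not a repeat.

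FOS, a subunit of AP-1 that pairs with JUN proteins (chromosome 14, 75278774 to 75282230, plus strand), had 23.2, 41.8, 61 and 2.3 CPM with darglitazone in MOLM-14, MV4-11, OCI-AML3 and KG-1a. With pioglitazone FOS had 21.1, 142, 20.2 and 3.32 CPM in the same order, and with DMSO it had 18.8, 34.8, 18.1 and 1.36 CPM. In every line both drug libraries stood above the DMSO library, by little in MOLM-14 and by most in OCI-AML3 with darglitazone and in MV4-11 with pioglitazone. The fitted log2 fold change was 0.85 with darglitazone (SE 0.50, 95% confidence interval -0.33 to 2.02, edgeR adjusted p = 1). With pioglitazone it was 1.09 (SE 0.51, interval -0.10 to 2.28, edgeR adjusted p = 0.867), or 0.36 without the MV4-11 pioglitazone library. The darglitazone value was 0.19 without the OCI-AML3 darglitazone library. In KG-1a the FOS values rest on 11, 33 and 12 counts with darglitazone, pioglitazone and DMSO, and MV4-11 reads at the measured share would by themselves give 2.87 CPM in the KG-1a darglitazone library, where 2.3 CPM were measured.

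EGR1, a zinc finger transcription factor that drives monocytic genes (chromosome 5, 138465490 to 138469315, plus strand), had 3.42, 3.11, 44.9 and 0.419 CPM with darglitazone in MOLM-14, MV4-11, OCI-AML3 and KG-1a. It had 5.31, 35.2, 14 and 0.201 CPM with pioglitazone, and 6.39, 4.77, 2.84 and 0.226 CPM with DMSO. EGR1 was above DMSO in OCI-AML3 with both drugs and in MV4-11 with pioglitazone, and below it in MOLM-14 with both drugs and in MV4-11 with darglitazone. All 3 KG-1a libraries held 2 counts of EGR1, under the floor. The fitted log2 fold change was 1.04 with darglitazone (SE 1.29, interval -2.03 to 4.12, edgeR adjusted p = 1) and 1.55 with pioglitazone (SE 1.18, interval -1.25 to 4.36, edgeR adjusted p = 0.933). Without the OCI-AML3 darglitazone library the first value was -0.65, and without the MV4-11 pioglitazone library the second was 0.11. The darglitazone value also turned to -0.20 without the OCI-AML3 DMSO library.

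**Figure D1:**
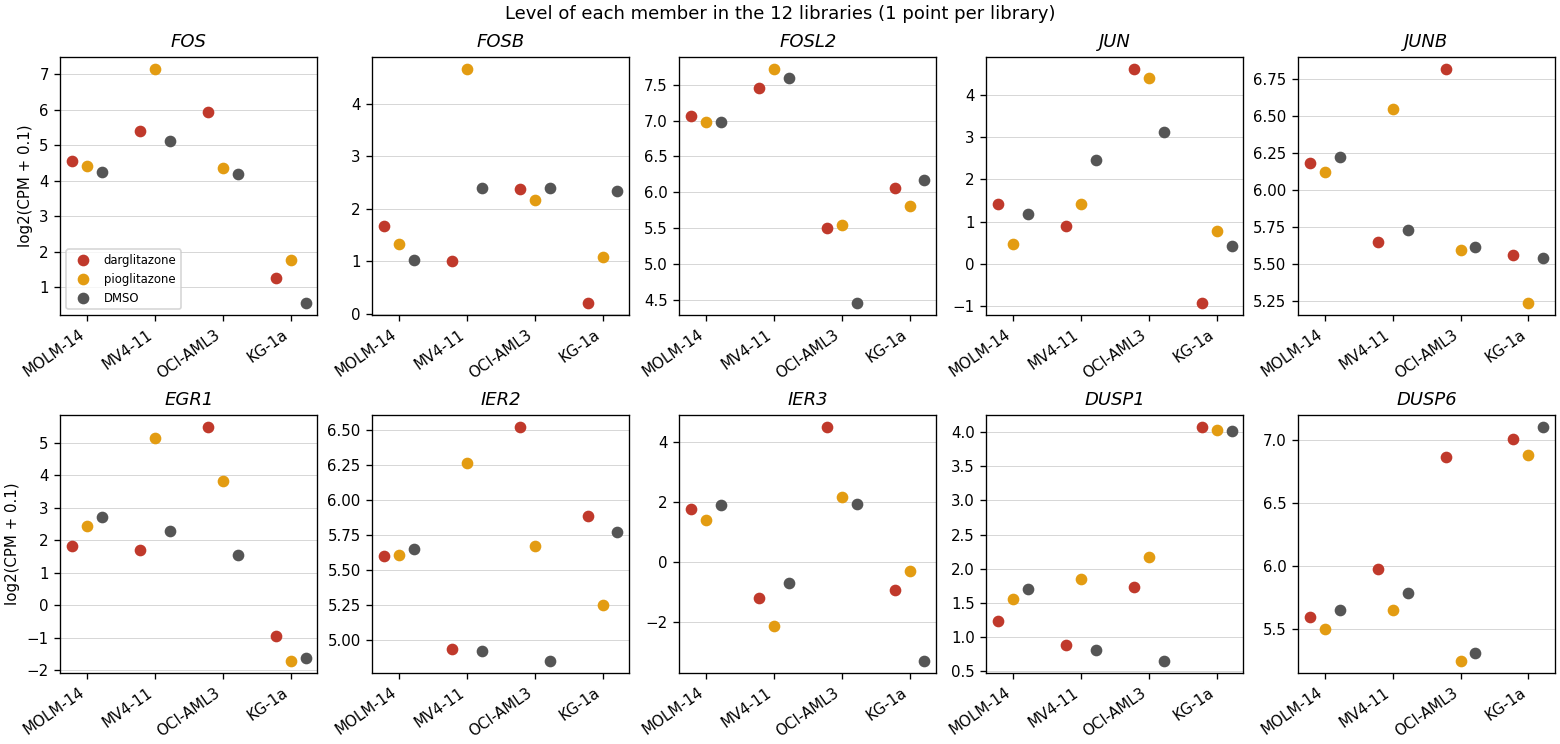
Level of each of the 10 members in each of the 12 libraries, as log2(CPM + 0.1) on the vertical axis (each panel has its own range) and by cell line on the horizontal axis, 1 point per library with darglitazone, pioglitazone and DMSO from left to right. The MOLM-14 points lie close together for FOS, FOSL2, JUNB, IER2 and DUSP6, while the OCI-AML3 darglitazone point and the MV4-11 pioglitazone point stand above the DMSO point of their line for FOS, EGR1, JUNB, IER2 and DUSP1.

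Among the other FOS subunits, FOSB, a short-lived partner of JUN proteins, had a fitted log2 fold change of -0.57 with darglitazone (SE 0.68, interval -2.07 to 0.93) and 0.54 with pioglitazone (SE 0.70, interval -0.99 to 2.07). Without the MV4-11 pioglitazone library the pioglitazone value of FOSB was -0.62. FOSL2, which encodes FRA2, a subunit that is induced later than FOS, had 0.20 with darglitazone (SE 0.19, interval -0.21 to 0.61) and 0.16 with pioglitazone (SE 0.19, interval -0.26 to 0.58). The interval of FOSL2 was the narrowest of the group with each drug.

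JUN, the main DNA-binding partner in AP-1, had -0.12 with each drug (SE 0.50 for both), with intervals of -1.19 to 0.96 for darglitazone and -1.20 to 0.96 for pioglitazone. JUNB, a weaker activator that can restrain JUN, had 0.31 with darglitazone (SE 0.29, interval -0.36 to 0.98) and 0.17 with pioglitazone (SE 0.30, interval -0.51 to 0.84). IER2, a nuclear protein of the early response, had 0.46 (SE 0.42) with darglitazone and 0.44 (SE 0.43) with pioglitazone. IER3, a survival factor that NF-κB also induces, had 1.05 (SE 0.68, interval -0.40 to 2.50) with darglitazone and 0.12 (SE 0.71, interval -1.41 to 1.65) with pioglitazone.

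The 2 phosphatases did not pass either. DUSP1, a nuclear phosphatase of p38, JNK and ERK, had a log2 fold change of 0.17 with darglitazone (SE 0.35, interval -0.57 to 0.91) and 0.50 with pioglitazone (SE 0.36, interval -0.27 to 1.28). DUSP6, the cytoplasmic phosphatase of ERK whose RNA is often read as a gauge of ERK activity, had 0.43 with darglitazone (SE 0.26, interval -0.15 to 1.02) and -0.11 with pioglitazone (SE 0.26, interval -0.70 to 0.48). Without the OCI-AML3 darglitazone library the darglitazone value of DUSP6 was 0.02.

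**Figure D2:**
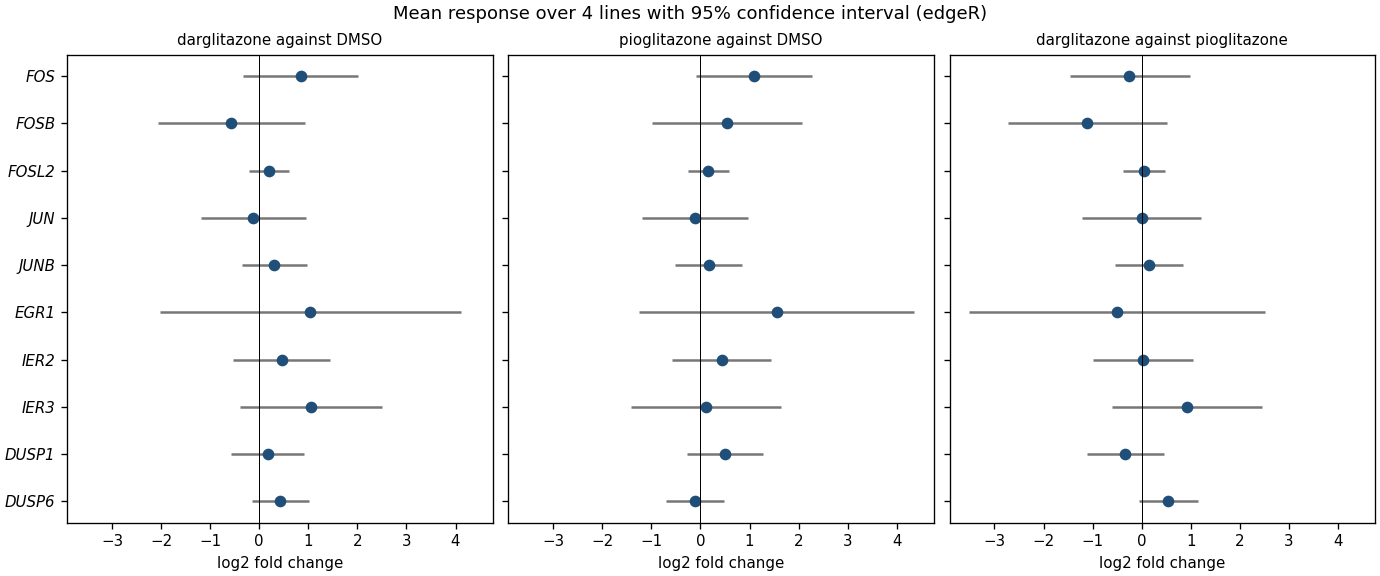
Fitted log2 fold change of each member (point) with its 95% confidence interval (line) from edgeR over the 4 lines, for darglitazone against DMSO, pioglitazone against DMSO and darglitazone against pioglitazone. Every interval includes 0, and the interval of EGR1 is the widest in all 3 panels, reaching from -2.03 to 4.12 with darglitazone.

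Darglitazone and pioglitazone were given at the same dose and for the same time, so their libraries can be set against each other directly. This was 1 pair of compounds, and 0 of 15424 genes (0%) were called, with 541 (3.51%) at an unadjusted p under 0.05. No member passed. The smallest unadjusted p of the group was that of DUSP6, at 0.0709, with a log2 difference of 0.54, darglitazone over pioglitazone (SE 0.27, interval -0.06 to 1.14, edgeR adjusted p = 0.98). FOSB had a difference of -1.11 (SE 0.74, interval -2.73 to 0.52, edgeR adjusted p = 0.98) and IER3 one of 0.93 (SE 0.71, interval -0.60 to 2.45, edgeR adjusted p = 0.98). EGR1 had a difference of -0.51 with an interval of -3.52 to 2.51, which leaves room for a large difference either way. FOSL2 was the most tightly bounded, at 0.04 (interval -0.38 to 0.47).

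Next, each line was read on its own. With 1 library per treatment these ratios carry no test, and each interval given covers counting error only. A member was counted as higher or lower when its log2 ratio of scaled CPM, with a prior count of 2, reached 1 in size.

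OCI-AML3 with darglitazone was the library in which most of the group stood higher. There 9 of 10 members were at least 2-fold higher than with DMSO, where 7.23% of all genes were, and the median log2 ratio of the members was 1.54, beside 0 for all genes. No member was 2-fold lower, where 5.34% of all genes were. EGR1 had 44.9 CPM with darglitazone and 2.84 CPM with DMSO, from 946 and 190 counts, a ratio of 15.8 (counting interval 13.5 to 18.6). Only 0.0648% of genes had a larger log2 ratio than EGR1 in that pair of libraries. IER3 had 22.9 CPM with darglitazone and 3.77 CPM with DMSO, a ratio of 6.07 (5.20 to 7.10).

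The AP-1 subunits followed at smaller ratios in the same pair. FOS had 61 CPM with darglitazone and 18.1 CPM with DMSO (ratio 3.36, interval 3.11 to 3.64). JUN had 24.7 and 8.64 CPM (ratio 2.86, interval 2.54 to 3.23), JUNB had 113 and 49.1 CPM (2.30, interval 2.18 to 2.43) and FOSL2 had 45.2 and 21.8 CPM (2.07, interval 1.91 to 2.25), in each case with darglitazone and with DMSO. FOSB was the exception, with 5.08 CPM with darglitazone and 5.16 CPM with DMSO (ratio 0.986, interval 0.786 to 1.23). IER2 had 92 CPM with darglitazone and 28.7 CPM with DMSO, DUSP6 had 117 and 39.4 CPM, and DUSP1 had 3.23 and 1.46 CPM, for ratios of 3.21, 2.97 and 2.21.

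The OCI-AML3 pioglitazone library, with its 1.1 M counts, had 4 of 10 members at least 2-fold higher than DMSO, where 10.7% of all genes were and the median log2 ratio of all genes was -0.20. These were EGR1 (14 CPM from 16 counts, against 2.84 CPM with DMSO), JUN (21.1 against 8.64 CPM), FOSL2 (46.5 against 21.8 CPM) and DUSP1 (5 counts). No member was 2-fold lower, where 18.9% of all genes were. FOS had 20.2 CPM with pioglitazone and 18.1 CPM with DMSO, a ratio of 1.11 (counting interval 0.702 to 1.68). DUSP6 had 37.7 CPM with pioglitazone and 39.4 CPM with DMSO. JUN and FOSL2 were thus about as high with pioglitazone as with darglitazone in OCI-AML3, with ratios of darglitazone over pioglitazone of 1.17 (0.780 to 1.85) and 0.972 (0.736 to 1.31). FOS, JUNB, EGR1, IER3 and DUSP6 were at least 2-fold higher with darglitazone than with pioglitazone there, where 19.8% of all genes were.

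MV4-11 showed its higher levels with the other drug. With pioglitazone 5 of 10 members were at least 2-fold higher than with DMSO (6.79% of all genes) and 2 were lower (8.69% of all genes). EGR1 had 35.2 CPM with pioglitazone and 4.77 CPM with DMSO, a ratio of 7.38 (5.38 to 10.3). FOSB had 25.2 and 5.18 CPM (4.87, interval 3.55 to 6.78), FOS had 142 and 34.8 CPM (4.07, interval 3.60 to 4.61) and IER2 had 77 and 30.2 CPM (2.55, interval 2.21 to 2.95), with pioglitazone and with DMSO. The fifth was DUSP1, with 27 and 16 counts. JUN stood lower, with 2.59 CPM with pioglitazone and 5.39 CPM with DMSO (ratio 0.480, interval 0.271 to 0.818), and IER3 had 1 and 5 counts. With reads of other lines subtracted neither counted as 2-fold lower (0 of 10), JUN having stood close to the limit at a log2 ratio of -1.03.

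With darglitazone no member was 2-fold higher than DMSO in MV4-11 (5.52% of all genes were), and 2 were at least 2-fold lower (4.36% of all genes). FOSB had 1.92 CPM with darglitazone and 5.18 CPM with DMSO (ratio 0.371, interval 0.252 to 0.549), and JUN had 1.77 and 5.39 CPM (ratio 0.328, interval 0.222 to 0.487). Set against each other in MV4-11, darglitazone had 4 members at least 2-fold lower than pioglitazone, where 5.19% of all genes were: FOSB at a ratio of 0.0762, EGR1 at 0.0885, FOS at 0.295 and IER2 at 0.397. JUN thus had ratios to DMSO of 0.328 and 0.480 with darglitazone and pioglitazone in MV4-11, and was at least 2-fold higher with both in OCI-AML3.

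In MOLM-14 no member differed 2-fold from DMSO with either drug, where 3.12% of all genes were higher and 4.45% lower with darglitazone, and 2.91% higher and 2.92% lower with pioglitazone. FOS had 23.2 and 21.1 CPM with darglitazone and pioglitazone, against 18.8 CPM with DMSO. EGR1 had 3.42 and 5.31 CPM, against 6.39 CPM with DMSO, and its log2 ratio of -0.88 with darglitazone was the largest difference of the group from DMSO in that line. Between the drugs JUN had 2.57 CPM with darglitazone and 1.29 CPM with pioglitazone there, from 24 and 30 counts, a log2 ratio of 0.94.

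In KG-1a no library held more than 44 counts of FOS, FOSB, JUN, EGR1 or IER3, while the other 5 members had at least 80 in each. With darglitazone IER3 counted as higher, on 2 counts against 0 with DMSO (10.9% of all genes were higher), and FOSB and JUN as lower (8.06% of all genes), on 5 against 44 counts and 2 against 11 counts. With pioglitazone FOS was higher, on 33 against 12 counts (ratio 2.45, interval 1.23 to 5.21), and so was IER3, on 7 against 0 counts (8.22% of all genes were higher). FOSB was lower with pioglitazone, at 2.01 CPM against 4.98 CPM with DMSO (ratio 0.405, interval 0.226 to 0.701, where 7.85% of all genes were lower). With reads of other lines subtracted, 4 members counted as lower with darglitazone. None of the 5 members with more counts differed 2-fold from DMSO with either drug. With pioglitazone IER2 had 38 CPM, against 54.5 CPM with DMSO (ratio 0.696, counting interval 0.607 to 0.798), and FOSL2 (0.782, interval 0.697 to 0.878), JUNB (0.806, interval 0.699 to 0.929) and DUSP6 (0.850, interval 0.784 to 0.922) were also below DMSO beyond counting error. With darglitazone the counting intervals of these 4 included a ratio of 1. The share of all genes with a counting interval below 1 was not computed, and FP671120.3 held 23.5% of the KG-1a pioglitazone counts. DUSP1 had 16.8 and 16.2 CPM with darglitazone and pioglitazone, against 16.1 CPM with DMSO. IER2 was higher with darglitazone than with pioglitazone in KG-1a (59 against 38 CPM, ratio 1.55, interval 1.33 to 1.82). With library totals in place of TMM factors the median log2 ratio of all genes in KG-1a with pioglitazone was -0.38, and that of the members -0.53, and 1 member in place of 2 counted as higher.

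**Figure D3:**
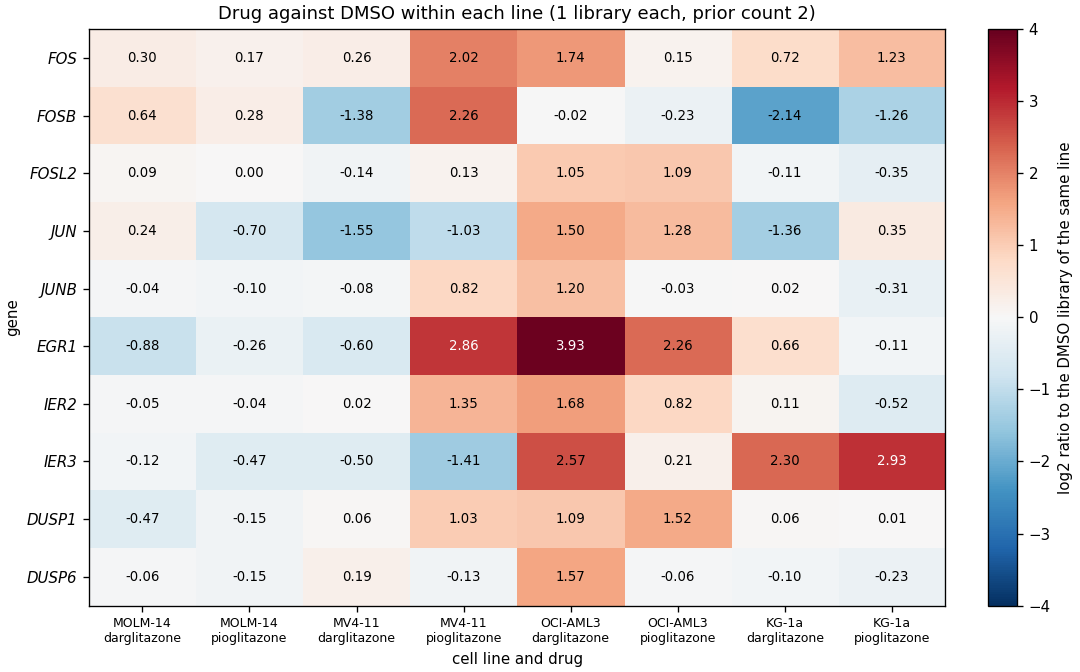
Log2 ratio of each drug library to the DMSO library of the same line (colour and printed value, prior count 2) for the 10 members, with lines and drugs along the horizontal axis. The OCI-AML3 darglitazone column is above 1 for every member but FOSB (-0.02), and the MV4-11 columns differ between the drugs, with EGR1 at -0.60 for darglitazone and 2.86 for pioglitazone.

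Whether the lines differ in their response was tested by the interaction of line and drug, which weighs the mean response of a line to both drugs against 3 residual degrees of freedom. No member passed (0 of 10), and 1 of 15424 genes (0.00648%) did. At an unadjusted p under 0.05 there were 470 genes (3.05%) and 1 member, FOSL2 (edgeR adjusted p = 1). The test takes both drugs of a line together, so that the opposite values of MV4-11 with darglitazone and pioglitazone enter it as spread. The differences between lines described above have thus not passed a test.

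Genes around the group were read from lists of the same pathways. No gene of these lists passed in a drug contrast: 0 of 11 other AP-1 subunits, 0 of 8 EGR and serum response factor genes, 0 of 33 other early response genes, 0 of 16 MAP kinase feedback genes and 0 of 25 MAP kinase cascade genes. The smallest unadjusted p with darglitazone was that of MAFG, a small MAF protein, with a log2 fold change of 0.53 (SE 0.16, edgeR adjusted p = 1). With pioglitazone it was that of BATF, an AP-1 subunit of immune cells, at -0.51 (SE 0.20, edgeR adjusted p = 0.806). NR4A1, an orphan nuclear receptor of the early response, had 1.38 with pioglitazone (SE 0.56, edgeR adjusted p = 0.81), and JDP2, a repressor that dimerises with JUN, had 0.53 (SE 0.23, edgeR adjusted p = 0.822).

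Within lines the other early response genes had their highest counts in the same 2 libraries as the members. In OCI-AML3 with darglitazone 30 of 33 were above DMSO and 16 at least 2-fold, where 7.23% of all genes were (median log2 ratio 0.81), and 0 were 2-fold lower. In MV4-11 with pioglitazone 24 of 33 were above DMSO and 13 at least 2-fold, where 6.79% of all genes were (median 0.65), and 2 were lower. In OCI-AML3 with pioglitazone 5 of 33 were at least 2-fold higher (10.7% of all genes) and 7 lower (18.9%). In KG-1a 3 were higher and 5 lower with darglitazone (10.9% and 8.06% of all genes), and 1 was higher and 3 lower with pioglitazone (8.22% and 7.85%). None was 2-fold higher in MOLM-14 with either drug or in MV4-11 with darglitazone, and 2 were lower in MOLM-14 and 2 in MV4-11 with darglitazone. Of the 8 EGR and serum response factor genes, only 1, NAB2, was at least 2-fold higher in either of these 2 libraries (7.23% and 6.79% of all genes). The medians of that list were 0.23 in OCI-AML3 with darglitazone and 0.32 in MV4-11 with pioglitazone. NAB2, the corepressor that EGR1 induces against itself, had 69.6 CPM with darglitazone and 16.1 CPM with DMSO in OCI-AML3. In MV4-11 it had 60.1 CPM with pioglitazone and 17.5 CPM with DMSO. ZFP36, which destabilises early response RNAs, had 86.6 CPM with darglitazone and 29.7 CPM with DMSO in OCI-AML3, and 110 CPM with pioglitazone and 34.9 CPM with DMSO in MV4-11. These genes were picked for display from the lists after their values were seen.

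Of the 11 other AP-1 subunits, MAFF and JUND were at least 2-fold higher in both of these libraries. MAFG and ATF3 were so in OCI-AML3 with darglitazone as well (4 of 11, where 7.23% of all genes were), and BATF3, FOSL1 and JDP2 in MV4-11 with pioglitazone (5 of 11, where 6.79% were). ATF3, a stress-induced partner of JUN, had 22.7 CPM with darglitazone and 8.25 CPM with DMSO in OCI-AML3. JUND, the most abundant JUN protein of many resting cells, had 277 CPM with pioglitazone and 135 CPM with DMSO in MV4-11. Of the 16 feedback genes that ERK induces, 13 stood above DMSO and 3 below it in OCI-AML3 with darglitazone. Those below were ETV4 (17.6 against 34.3 CPM with DMSO), SPRY1 (2.23 against 3.78 CPM) and ERRFI1 (0 against 0.0299 CPM). None was 2-fold lower (5.34% of all genes), and 6 of 16 were at least 2-fold higher (7.23% of all genes). PHLDA1 had the largest log2 ratio of these, 4.36 (4.85 CPM with darglitazone and 0.135 CPM with DMSO), and the others were DUSP5 (13.8 against 3.80 CPM with DMSO), CCND1 (12.6 against 4.18 CPM), DUSP4 (16.5 against 5.89 CPM), SPRY4 (9.60 against 3.86 CPM) and DUSP10 (36.7 against 18.1 CPM). In MV4-11 with pioglitazone 3 of 16 were (6.79% of all genes), namely ERRFI1 and again PHLDA1 and DUSP10, and 2 were lower (8.69%). In KG-1a 4 of 16 were higher with darglitazone (10.9% of all genes). Of the 25 kinases and adaptors of the cascade itself none was 2-fold higher in OCI-AML3 with darglitazone (7.23% of all genes) or MV4-11 with pioglitazone (6.79%). With 25 genes a count of 0 is not far from these shares. In each of the 2 libraries 1 of the 25 was 2-fold lower (5.34% and 8.69% of all genes), MAP2K6 in OCI-AML3 and KIT in MV4-11.

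**Figure D4:**
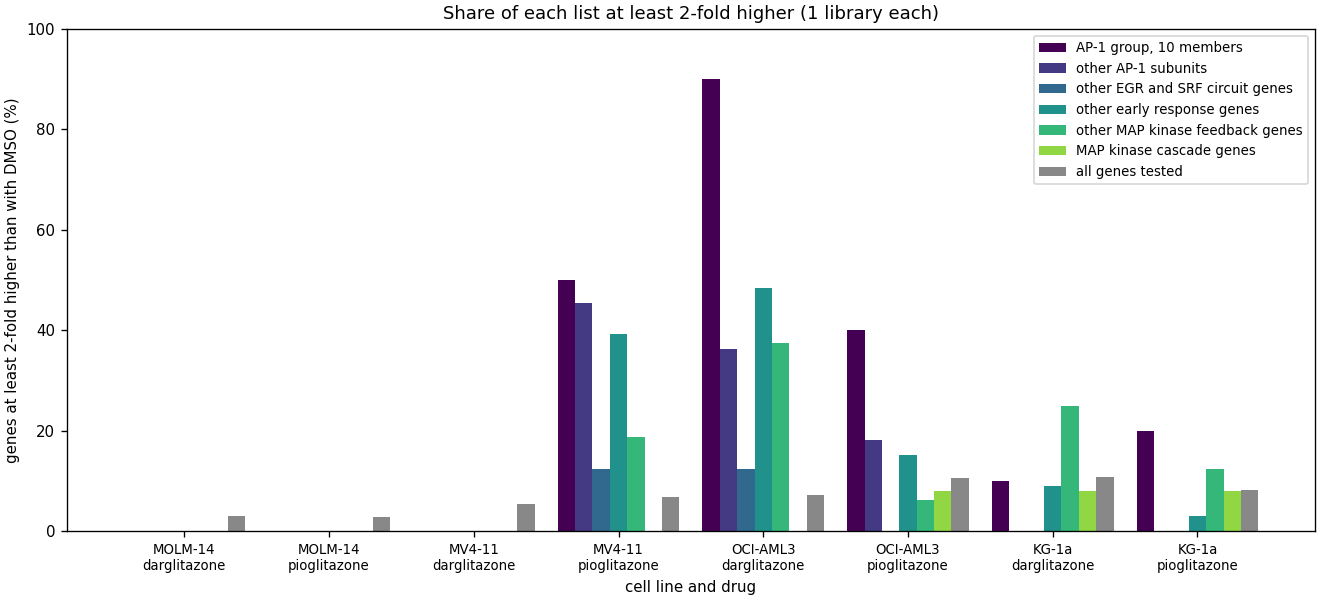
Percentage of the genes of each list that were at least 2-fold higher than with DMSO (vertical axis), for each line and drug (horizontal axis), with 1 library behind each value and the share of all genes tested in grey. The members and the other early response genes stand above the grey bar in OCI-AML3 with darglitazone (9 of 10 and 16 of 33) and in MV4-11 with pioglitazone (5 of 10 and 13 of 33), and none of either list is counted in MOLM-14.

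How closely the members moved together was described by the correlation of log2 CPM after subtraction of the mean of each line, over the 12 libraries. Of the 45 pairs of members 42 had a Pearson's r above 0, with a median of 0.45 and a range of -0.47 to 0.96. EGR1 and IER2 were the closest pair (0.96), followed by JUNB and IER2 (0.91). IER3 and FOSB were the most opposed (-0.47). Spearman's rho was above 0 for 36 pairs, with a median of 0.28. Without the OCI-AML3 darglitazone and MV4-11 pioglitazone libraries the median r was 0.02, with 24 of 45 pairs above 0, so that most of the likeness rested on those 2 libraries. EGR1 and IER2 kept an r of 0.82 without them. The 3 libraries of a line share its mean and the scaling, and no p is given.

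**Figure D5:**
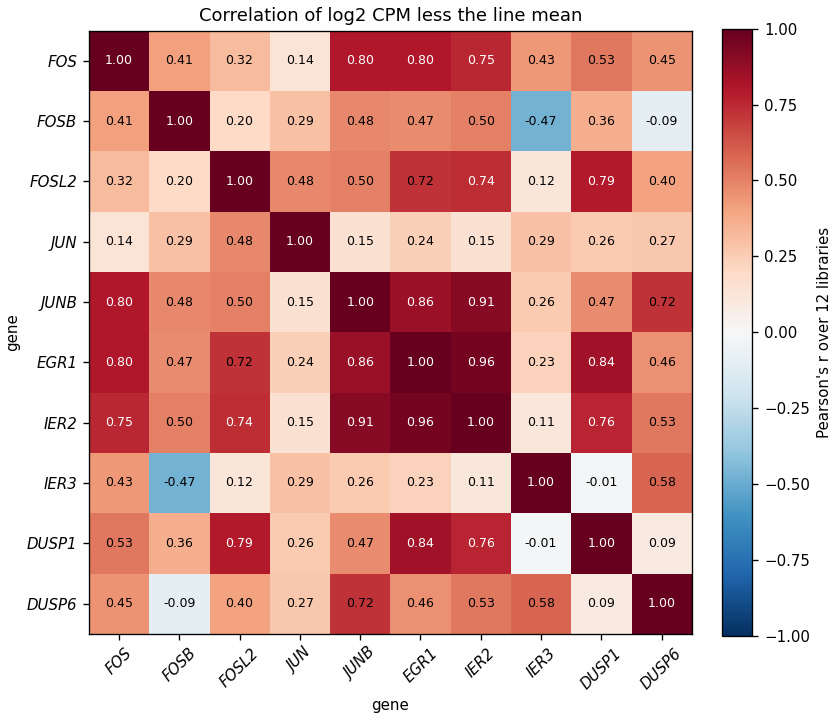
Pearson's r between members (colour and printed value) over 12 libraries, from log2 CPM less the mean of the line. EGR1, IER2 and JUNB form the block with the highest values (0.86 to 0.96), while JUN has no r above 0.48 with another member.

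Outside the group, among 7144 genes of at least 4 in mean log2 CPM, the genes most like the mean of the members over the 12 libraries were SLC7A5 (r = 0.996), NSUN2 (0.971), MARS1 (0.964), SEMA7A (0.950) and SLC3A2 (0.949). SLC7A5 and SLC3A2 encode the light and the heavy chain of a transporter of large neutral amino acids, and MARS1 encodes methionyl-tRNA synthetase. Without the 2 libraries named above their r was 0.991, 0.936, 0.813, 0.768 and 0.793. By rank the likeness over all 12 libraries was lower, with a Spearman's rho of 0.923, 0.657, 0.888, 0.741 and 0.881 in the same order. SLC7A5 had 1750, 1070 and 658 CPM in OCI-AML3 with darglitazone, pioglitazone and DMSO, and 242, 449 and 292 CPM in MV4-11. In MOLM-14 it had 336, 326 and 351 CPM, where the members were also level.

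For single members, FOS was most like SREBF2 (r = 0.964). SREBF2, a master regulator of cholesterol synthesis, had 284, 416 and 275 CPM in MV4-11 with darglitazone, pioglitazone and DMSO. EGR1 was most like JUND (0.972), SLC2A3 (0.963) and AARS1 (0.960), and DUSP6 most like TYK2 (0.981), BAG6 (0.980) and ARHGEF2 (0.977). These genes were the closest of 7144, and so high values are a product of the search as well.

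The lines themselves differed more than the treatments did. In these comparisons the 3 libraries of a line are 3 treatments of 1 line, so p measures only the spread between those libraries. Of the 10 members 6 (60%) differed in level between lines by edgeR's F test, where 72.6% of all genes did, a share that is not above the background. Without KG-1a 3 of 10 passed: FOS (edgeR adjusted p = 0.211), DUSP1 (0.763) and DUSP6 (0.676) did not, and without OCI-AML3 JUN did not (0.163). With all 4 lines the 6 were FOSL2 (edgeR adjusted p = 4.5e-06), DUSP1 (1.41e-05), JUN (9.31e-05), IER3 (0.000241), FOS (0.00203) and DUSP6 (0.00457). EGR1 (edgeR adjusted p = 0.0727), FOSB (0.17), JUNB (0.251) and IER2 (0.938) did not pass. These depend on the setting as well, IER2 excepted. EGR1 passed with DESeq2 (adjusted p = 0.000823), with limma-voom (0.0454) and without MV4-11 (edgeR adjusted p = 0.013) or OCI-AML3 (0.00254), FOSB with limma-voom (0.0188), and JUNB without MV4-11 (edgeR adjusted p = 0.0378). With no low-count filter EGR1, FOSB and JUNB all passed. With single libraries left out 6 to 8 of the 10 members passed.

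FOS was lower, and the phosphatases DUSP1 and DUSP6 higher, in KG-1a than in the other 3 lines. FOS averaged 2.33 ± 0.983 CPM in KG-1a (SD, n = 3 treatments), against 21 ± 2.19 in MOLM-14, 33.1 ± 24.2 in OCI-AML3 and 72.8 ± 59.8 in MV4-11, and its KG-1a values did not overlap with those of any other line. The fitted log2 difference from KG-1a was 3.27 for MOLM-14 (SE 0.68, edgeR adjusted p = 0.00465), 3.94 for OCI-AML3 (SE 0.70, edgeR adjusted p = 0.00203) and 4.85 for MV4-11 (SE 0.69, edgeR adjusted p = 0.000689). Among the other lines no pair passed for FOS, but MOLM-14 over MV4-11 lay close to the threshold (log2 -1.58, edgeR adjusted p = 0.0541). It passed with DESeq2 (adjusted p = 0.00121), limma-voom (0.0103), protein-coding genes only (edgeR 0.0402), no treatment term (0.0473) and no low-count filter. It also passed without OCI-AML3 (0.0208) and without the OCI-AML3 pioglitazone (0.0383), OCI-AML3 darglitazone (0.0125) or MV4-11 darglitazone library (0.0136). MV4-11 over OCI-AML3 (log2 0.91, edgeR adjusted p = 0.235) passed with DESeq2 (adjusted p = 0.0489), with no low-count filter and without the OCI-AML3 darglitazone library (edgeR 0.0284).

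DUSP1 averaged 16.3 ± 0.359 CPM in KG-1a, against 3.03 ± 1.47 for OCI-AML3, 2.74 ± 0.457 for MOLM-14 and 2.30 ± 1.04 for MV4-11 (SD, n = 3 treatments each). The log2 difference was -2.55 for MOLM-14 over KG-1a (SE 0.40, edgeR adjusted p = 9.55e-05), -2.63 for OCI-AML3 (SE 0.43, edgeR adjusted p = 0.000143) and -2.92 for MV4-11 (SE 0.42, edgeR adjusted p = 4.71e-05). DUSP6 too was highest in KG-1a, with 128 ± 10.4 CPM, against 64.7 ± 45.3 for OCI-AML3, 56 ± 6.31 for MV4-11 and 47.8 ± 2.57 for MOLM-14. The OCI-AML3 value of DUSP6 combines 117 CPM with darglitazone and 37.7 and 39.4 CPM with pioglitazone and DMSO, and its difference from KG-1a (log2 -1.06, edgeR adjusted p = 0.0161) did not pass without the OCI-AML3 DMSO library (0.0578), the OCI-AML3 pioglitazone library (0.0704) or the KG-1a DMSO library (0.0574).

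FOSL2 separated all 4 lines. It averaged 193 ± 17.7 CPM in MV4-11, 129 ± 4.63 in MOLM-14, 64.9 ± 7.98 in KG-1a and 37.8 ± 13.9 in OCI-AML3 (SD, n = 3 treatments each), and each of the 6 pairs of lines passed the test. The weakest was MOLM-14 over MV4-11, at a log2 difference of -0.59 (SE 0.21, edgeR adjusted p = 0.047), which missed the threshold without any 1 of 6 single libraries and with DESeq2-type (RLE) size factors (0.0509). JUN was highest in OCI-AML3, with 18.1 ± 8.42 CPM, against 3.25 ± 1.90 in MV4-11, 2 ± 0.653 in MOLM-14 and 1.09 ± 0.611 in KG-1a. OCI-AML3 differed from each of the other lines for JUN (edgeR adjusted p of 0.000597, 0.00293 and 0.000129 for MOLM-14, MV4-11 and KG-1a), and the other lines did not differ from each other past the threshold. For JUN, MV4-11 over KG-1a (edgeR adjusted p = 0.0736) passed with no treatment term (0.0484) and with no low-count filter (0.0211). It also passed without the OCI-AML3 DMSO library (0.0453) or the MV4-11 darglitazone library (0.0327).

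IER3 was found mainly in OCI-AML3 (10.3 ± 10.8 CPM) and MOLM-14 (3.16 ± 0.535 CPM), and in MV4-11 (0.328 ± 0.195) and KG-1a (0.375 ± 0.355) at no more than 11 counts in a library. The pairs OCI-AML3 and MOLM-14, and MV4-11 and KG-1a, did not differ past the threshold. The first of these passed with limma-voom (adjusted p = 0.0354) and with no treatment term (edgeR 0.0472). EGR1 averaged 20.6 ± 21.8 CPM in OCI-AML3, with 14.4 ± 18.1 for MV4-11, 5.04 ± 1.5 for MOLM-14 and 0.282 ± 0.119 for KG-1a. Its difference from KG-1a passed for OCI-AML3 (log2 6.26, interval 1.95 to 10.57, edgeR adjusted p = 0.0243) and for MV4-11 (log2 5.49, interval 1.19 to 9.79, edgeR adjusted p = 0.0426), not past limma-voom (0.0673 and 0.197). It also missed the threshold without any single KG-1a library, and for MV4-11 without any 1 of 8 single libraries in all.

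Counted over pairs of lines, 2 of 10 members were called between MOLM-14 and MV4-11 (37.1% of all genes), 2 between MOLM-14 and OCI-AML3 (33.6%), 5 between MOLM-14 and KG-1a (52.7%), 3 between MV4-11 and OCI-AML3 (40.7%), 5 between MV4-11 and KG-1a (47.4%) and 7 between OCI-AML3 and KG-1a (51.5%). In 4 of the 6 pairs the share of members was below that of all genes. IER2 was the most even member, at 45.9 ± 26.9 CPM in MV4-11, 49.1 ± 0.860 in MOLM-14, 50.5 ± 11.1 in KG-1a and 57.2 ± 32.1 in OCI-AML3. JUNB lay between 43.8 ± 5.44 CPM in KG-1a and 72.3 ± 2.48 CPM in MOLM-14.

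Levels can be compared between genes on the TPM scale, which divides the counts by transcript length. In the DMSO libraries JUNB had 43.6, 34.6, 32.1 and 26.7 TPM in MOLM-14, MV4-11, OCI-AML3 and KG-1a, while JUN had 0.646, 1.81, 2.90 and 0.366 TPM, so that JUNB was the more abundant of the pair in each. DUSP6 (30.8, 40.4, 27.2 and 96.3 TPM) likewise stood above DUSP1 (1.66, 0.977, 0.863 and 8.29 TPM). FOSL2 was above FOS in MOLM-14, MV4-11 and KG-1a with DMSO (25.0 against 17.5 TPM in MOLM-14), and FOS above FOSL2 in OCI-AML3 (15.4 against 5.42 TPM). With pioglitazone in MV4-11 that order turned, with 96.6 TPM of FOS and 45.4 TPM of FOSL2.

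The counts of some members can hold reads of other origin. JUN, JUNB, EGR1 and DUSP1 have 1 annotated transcript each. FOSB, with 979 counts over all libraries, overlaps ERCC1 on the opposite strand, with 27398. JUNB, with 14168 counts, overlaps HOOK2, with 2808. The library kit keeps the strand, per the labels' protocols, but no source used here says whether the counting used it. The unspliced transcript of IER2 held 46.6%, 45.4% and 20.6% of the IER2 counts in MV4-11 with darglitazone, pioglitazone and DMSO, and at most 20.1% in the other lines. The unspliced transcript of IER3 held 24.7% and 47.8% of the IER3 counts in OCI-AML3 with darglitazone and DMSO. Its share was 55.8% in MOLM-14 with DMSO. How far unspliced RNA enters the differences between libraries was not tested.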

How the data were processed

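Total RNA of 12 libraries was sequenced after ribosomal RNA removal with a stranded kit, per the labels' protocols. The authors deposited estimated counts per transcript without normalization. The submitters' processing notes name GRCh38 and list STAR, featureCounts, DESeq2, fastp and FastQC. The tool that gave the estimated counts, the versions and the annotation are not given in the sources used here. Estimated counts can shift reads between transcripts and similar genes.

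Of 203027 transcripts, 202941 matched GENCODE release 29. Their estimated counts were summed per gene and rounded. The edgeR 4.0.16 filter (minimum count 10, minimum total 15) left 15424 genes, TMM scaled the libraries, and a robust quasi-likelihood F test of line and treatment was fitted to all 12 (6 residual degrees of freedom), with Benjamini-Hochberg adjustment over all genes and a threshold of 0.05. The line pairs the libraries by design. Libraries of the same line deviated together from the treatment means (r of 0.60 to 0.85 in 12 pairs, and -0.49 to -0.04 in the 36 pairs that join different lines and treatments). The negative values between different lines come in part from the subtraction of the treatment means itself. P-values of the drug contrasts measure the spread between lines, since no culture was repeated. In the comparisons of lines, the 3 libraries of a line stand in for its replicates. They are 3 treatments of 1 line, so p measures only the spread between these libraries. CPM are relative to the TMM-scaled total of the tested genes. Single-line ratios carry 95% Clopper-Pearson intervals, and these and the floor of 3 counts cover counting error only. The test was run on simulated data in which a changed gene had the same fold in every line. That check does not cover responses of single lines. R 4.3.3, limma 3.58.1 and DESeq2 1.42.0 served the alternatives.

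The members and lists were chosen with earlier results of these data known. All members were named in every comparison. Of the other lists, called genes or else those with the smallest p were named, as were the genes most like the members' mean, FOS, EGR1 and DUSP6. For FOS only the closest gene is given, and the rest are not reported here.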

Additional observations from a re-analysis of the deposited data

Results flagged for a closer look

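Of 60 groups of 4 values (10 members, each with 3 treatments and 3 log2 ratios), 15 had a value far from the others, by a gap over range above 0.829. For 4 values drawn from a single normal distribution about 1 in 20 would be flagged. The CPM groups instead hold 4 different lines, and 72.6% of all genes differed in level between lines by edgeR's F test. The share flagged over all genes was not computed, and groups of 1 gene share libraries and are not independent.

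In MV4-11 with pioglitazone, FOS (gap over range 0.871) and FOSB (0.898) stood far above the other pioglitazone libraries. In OCI-AML3 with darglitazone, EGR1 (0.933), JUN (0.912) and IER3 (0.868) stood far above the other darglitazone libraries, and the log2 ratios to DMSO of JUNB (0.921) and IER2 (0.906) and the log2 ratio of darglitazone to pioglitazone of DUSP6 (0.854) lay far above those of the other lines. JUN was also far higher in OCI-AML3 than in the other lines with pioglitazone (0.934).

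In KG-1a, DUSP1 stood apart from the other lines with darglitazone (0.901), pioglitazone (0.884) and DMSO (0.885), and DUSP6 with pioglitazone (0.844) and DMSO (0.842). FOSB with DMSO was far lower in MOLM-14 than in the other lines (0.937).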

How the results depend on the processing

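Counts of genes called in a drug contrast were not stable. Where 0 genes were called for darglitazone against DMSO, pioglitazone against DMSO and darglitazone against pioglitazone, DESeq2 called 6, 74 and 12, and no low-count filter gave 76, 223 and 88. Leaving out a line or a library gave 0 to 3, 0 to 14 and 0 to 4. No alternative called a member in these contrasts except the lack of a low-count filter, with which FOS (adjusted p = 0.00042) and EGR1 (0.00446) passed with pioglitazone. DESeq2 gave no adjusted p to 8 of 10 members with pioglitazone against DMSO and 7 with darglitazone against pioglitazone, so that it could call none of them there. The interaction of line and drug called 1 gene, 64 with DESeq2, 2 with limma-voom, 124 with no low-count filter, 0 with protein-coding genes only, 85 without the pioglitazone libraries of OCI-AML3 and KG-1a (DUSP6 passed there, at 0.0466), and 0 to 22 when a line or a drug library was left out. It could not be fitted without a DMSO library.

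Several uncalled members changed sign, and the cause was not tested. With limma-voom JUN had 0.44 and DUSP6 0.02 with pioglitazone, and JUN 0.95 with darglitazone. With no replicate block, that is without the pairing by line, JUN had 0.76 with darglitazone, JUN 0.52 and IER3 -0.15 with pioglitazone, and FOSL2 -0.06 for darglitazone against pioglitazone. The block changed no member's call. Without the pioglitazone libraries of OCI-AML3 and KG-1a IER3 had -0.18 and DUSP6 0.02 with pioglitazone, and JUNB -0.28 and IER2 -0.49 for darglitazone against pioglitazone, where IER2 had -0.01 with protein-coding genes only.

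With a line or a library left out, log2 fold changes with darglitazone ran from -0.82 to 2.38 for EGR1, -0.77 to 0.50 for JUN, -0.16 to 0.41 for DUSP1, -0.07 to 0.52 for JUNB and -0.06 to 0.33 for FOSL2. With pioglitazone they ran from -0.62 to 1.18 for FOSB, -0.60 to 0.40 for JUN, -0.40 to 0.82 for IER3, -0.19 to 0.31 for JUNB, -0.07 to 0.32 for FOSL2 and -0.04 to 0.74 for IER2. For darglitazone against pioglitazone they ran from -2.24 to 1.03 for EGR1, -1.77 to 0.08 for FOSB, -0.91 to 0.54 for FOS, -0.36 to 0.54 for IER2, -0.21 to 0.55 for JUNB and -0.09 to 0.16 for FOSL2. Between MOLM-14 and OCI-AML3 they ran from -2.84 to 0.33 for EGR1 and -1.07 to 0.07 for FOS, and between MV4-11 and OCI-AML3 from -0.52 to 0.52 for DUSP6. Of the 60 results of a member in a pair of lines, 22 passed under no setting, and 18 of these changed sign under at least 1.

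Within lines, subtracting the reads of other lines left 0 members lower in MV4-11 with pioglitazone and 4 in KG-1a with darglitazone, and library totals without TMM left 1 higher in KG-1a with pioglitazone. The last was chosen after seeing the data. The counts in OCI-AML3 with darglitazone and MV4-11 with pioglitazone that stood higher kept within 1.5 times of 9 and 5 under every scaling and prior count tried. Depth limits OCI-AML3 with pioglitazone most, at 1.1 M counts.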
